A study of Oryza sativa with 8 samples.

Results

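The regions described here are the differentially methylated regions (DMRs) around the centromeres of rice, defined as DMRs whose midpoint lies within 1.5 Mb of an approximate centromere position on each of the 12 chromosomes. Of 100479 DMRs in 4 lists, 13265 (13.2%) met this rule, in zones that together make up 36 Mb, or 9.65% of the 373 Mb reached by the lists. The lists came from whole-genome bisulfite sequencing, which reads unmethylated cytosines as thymine, of leaf DNA from mature field-grown plants (the tissue is labelled shoot). The plants were WYG7, a japonica wild type, or Ox1, a transgenic line in the WYG7 background in which the nitrate transporter partner gene OsNAR2.1 is driven by its own promoter. Both were raised from parent seeds with a high (HN) or a low (LN) nitrogen content, and grown with 300 kg N/ha (HN field) or in plots without nitrogen fertiliser (NN field); all plots received phosphate and potassium. Each of the 8 conditions had 1 library, and Ox1 is 1 line. Each list compares the LN with the HN library of 1 line in 1 field, so the 4 lists share no library. A hyper-DMR was read as more methylated in the plants from LN seeds and a hypo-DMR as less methylated; the lists themselves do not name the reference library.

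A centromere is the site where the kinetochore assembles, on nucleosomes that carry the histone variant CENH3. In rice it is built on the CentO satellite and on centromeric retrotransposons, and is flanked by pericentromeric heterochromatin, which is rich in transposable elements, recombines rarely and is heavily methylated. Plants keep this methylation in the CG, CHG and CHH contexts with separate enzymes, MET1 for CG, CMT3 for CHG, and CMT2 and the RNA-directed DRM2 for CHH. The lists give position and direction alone, with no methylation level, coverage, context or p-value for a DMR. The label of the zones was not checked against satellite or CENH3 sequence, which was not analysed here. With no replicate library, no test between conditions or between zones and other regions was made, and the intervals given are 95% Wilson intervals over DMRs that cover counting error only.

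DMRs were denser around the centromeres than elsewhere in all 4 comparisons. WYG7 in the HN field had 3380 centromeric DMRs, 11.7% of its list, or 93.9 per Mb against 75.6 per Mb in the other parts of the chromosomes. In Ox1 in the HN field there were 3439 (13.5%), or 95.5 against 65.6 per Mb. WYG7 in the NN field had the most, 3739 (14.2%), or 104 against 66.9 per Mb. Ox1 in the NN field had the fewest, 2707 (13.7%), or 75.2 against 50.6 per Mb. The zones were thus 1.24, 1.46, 1.55 and 1.49 times as dense as the other parts, in that order, which is also the order used in every list of 4 values that follows. Against the outer 1.5 Mb of each chromosome end, where genes are dense in rice, the ratios were 1.12, 1.70, 2.00 and 1.61. DMRs covered 2.74%, 2.78%, 3.14% and 2.08% of the zones and 2.39%, 1.84%, 1.96% and 1.39% of the other parts. WYG7 in the HN field had the smallest ratio on every one of these measures. Its list also held 22 windows of 500 kb with more than 3 times the median number of DMRs, of which 1 touched a zone, against 1, 0 and 1 in the other lists.

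The higher density did not rest on a few chromosomes. The zone was denser than the rest of its chromosome on 12 of 12 chromosomes in Ox1 in the HN field, in WYG7 in the NN field and in Ox1 in the NN field, and on 10 of 12 in WYG7 in the HN field. The exceptions in that list were chromosome 2, with 61.0 DMRs per Mb in the zone and 63.8 outside it, and chromosome 11, with 67.0 against 112 per Mb. The ratio was highest on chromosome 3 in the first 3 comparisons (1.67, 1.82 and 1.96) and on chromosome 4 in Ox1 in the NN field (1.93). Leaving out each chromosome in turn moved the pooled ratios only within 1.21-1.33, 1.43-1.48, 1.52-1.59 and 1.44-1.52.

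**Figure D1:**
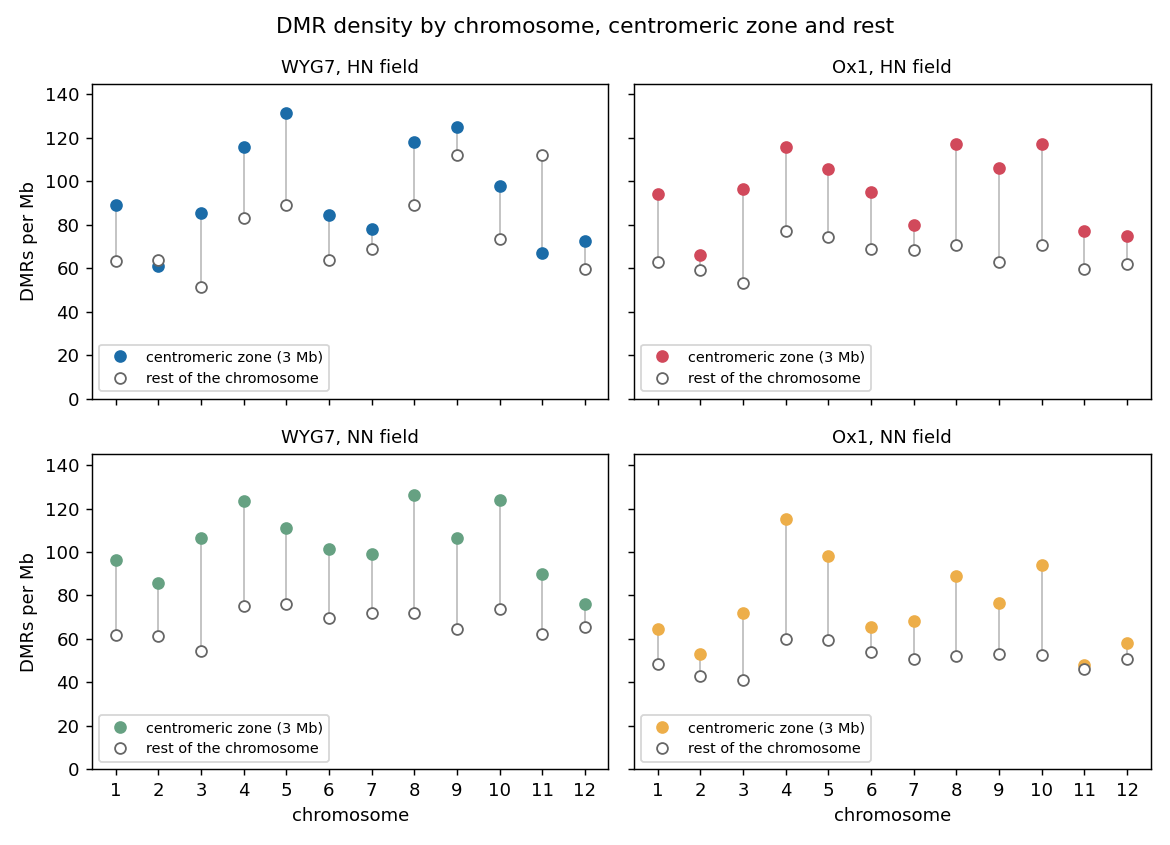
Centromeric DMRs per Mb on each chromosome (filled) and DMRs per Mb in the rest of that chromosome (open), 1 panel per comparison. The filled point lies above the open one on every chromosome except 2 and 11 in WYG7 in the HN field.

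Chromosomes differed in how many DMRs their zones of 3 Mb held. Over the 4 lists together, chromosome 4 had the most (1412), followed by 8 (1353), 5 (1340), 10 (1299) and 9 (1242), and chromosomes 2 (797), 12 (844) and 11 (846) had the fewest. The zone of chromosome 4, which adjoins the heterochromatic short arm, held 348, 348, 371 and 345 DMRs in the 4 comparisons. Its counts thus hardly varied, although the Ox1 list in the NN field was the shortest of the 4. Chromosome 11, by contrast, held 201, 231, 270 and 144, and chromosome 2 held 183, 198, 257 and 159. Within a list, the fullest zone held 395 DMRs (chromosome 5), 352 (chromosomes 8 and 10), 379 (chromosome 8) and 345 (chromosome 4).

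The density had no sharp edge at the boundary of the zones. Just inside it, at 1.25-1.5 Mb from the centromere positions, there were 89.5, 85.0, 98.5 and 67.5 DMRs per Mb, and just outside it, at 1.5-1.75 Mb, 96.8, 91.5, 96.3 and 67.8. At 1.5-3 Mb the values were 98.8, 88.9, 92.2 and 64.6, at 3-5 Mb 82.6, 83.0, 84.5 and 62.6, and at 5-10 Mb 77.9, 65.7, 69.1 and 49.9. Density was thus lower in each step away from the zones in 3 comparisons, while in WYG7 in the HN field it was higher at 1.5-3 Mb than in the zones (93.9) and lower beyond that. The innermost 0.25 Mb on either side held 101.5, 93.2, 106 and 81.3 DMRs per Mb, against 92.4, 96.0, 103 and 74.0 at 0.25-1.5 Mb. With all chromosomes pooled, the inner value was thus the lower one in Ox1 in the HN field alone. In WYG7 in the HN field, chromosome 9 held 109 of the 609 inner DMRs, or 218 per Mb, and the other chromosomes had 58.0-126 per Mb. Without chromosome 9, this list had 500 inner DMRs and 91.1 DMRs per Mb over the whole zones. Its inner density was then no longer the higher one. The longest stretch free of DMRs in all 4 lists had a median of 57.6 kb over the zones, and in 0 of 12 zones did it span the centromere position. The longest of all, on chromosome 11 (chr11:12320009-12555231, 235 kb), was also the longest of its chromosome. Whether reads were mappable there was not tested.

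**Figure D2:**
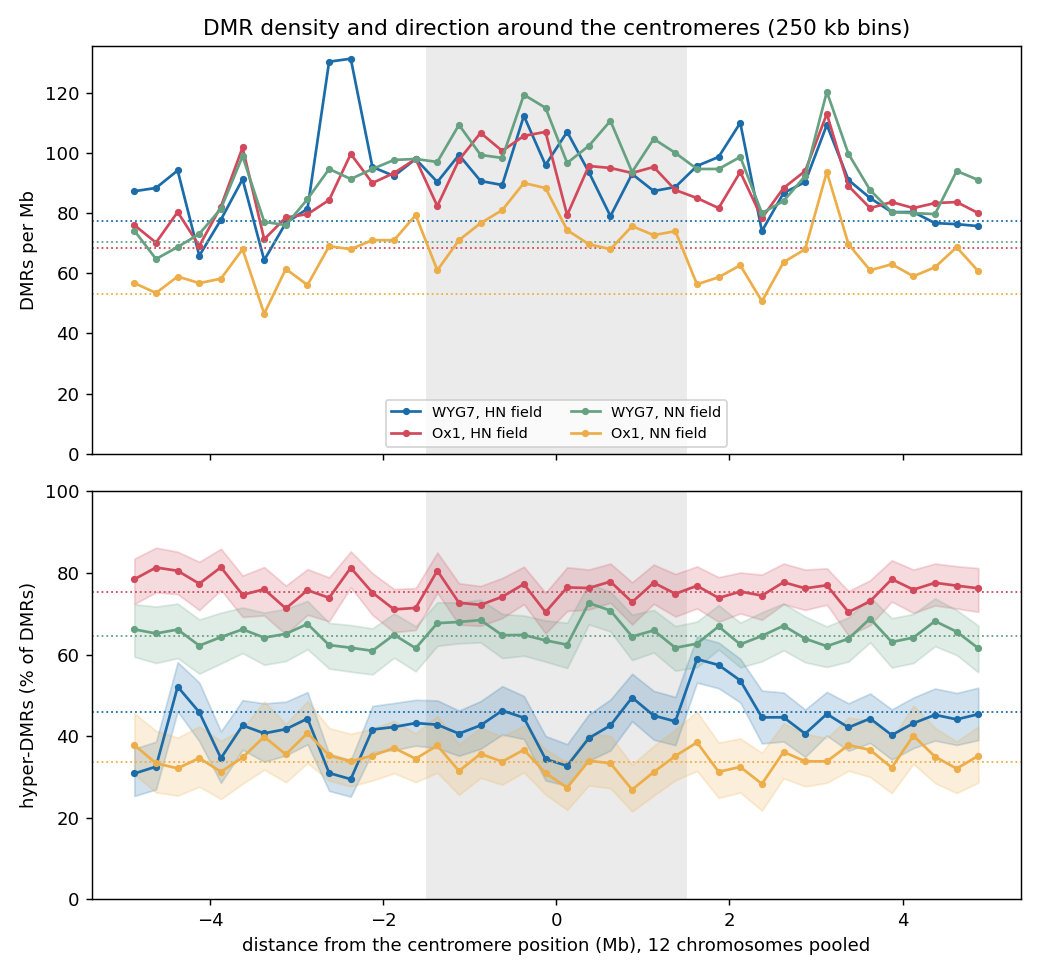
DMR density (top) and share of hyper-DMRs (bottom) in bins of 250 kb by distance from the centromere position, pooled over 12 chromosomes, with 1 line per comparison. The grey band marks the zones, dotted lines the value over all DMRs of a list and shading the Wilson interval; density is above the dotted line across most of the band, and the share of hyper-DMRs stays near its list's value except in WYG7 in the HN field.

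Direction around the centromeres differed far more between comparisons than between the zones and their lists. In WYG7 in the HN field, 1415 of 3380 centromeric DMRs (41.9%, 40.2-43.5%) were hyper, against 45.9% of all DMRs in that list. Ox1 in the HN field was mostly hyper, with 2584 of 3439 (75.1%, 73.7-76.6%) against 75.4% of its list. In WYG7 in the NN field, 2478 of 3739 (66.3%, 64.7-67.8%) were hyper, against 64.5%. Ox1 in the NN field was mostly hypo: 888 of 2707 (32.8%, 31.1-34.6%) were hyper, against 33.7%. The zones thus lay near the share of their own list in each comparison, and 41.9% in WYG7 in the HN field was the value farthest from it. That gap depended on the dense windows. Between zones and other parts it was 41.9% against 46.5%, and without the 22 dense windows it was 42.4% against 43.8%. The other parts had 75.5%, 64.2% and 33.9% hyper-DMRs in the remaining 3 comparisons.

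Both directions were denser around the centromeres. Hyper-DMRs numbered 39.3, 71.8, 68.8 and 24.7 per Mb in the zones and 35.1, 49.5, 43.0 and 17.1 per Mb elsewhere. Hypo-DMRs numbered 54.6, 23.8, 35.0 and 50.5 per Mb in the zones and 40.5, 16.1, 23.9 and 33.5 elsewhere. The ratios for hyper-DMRs were 1.12, 1.45, 1.60 and 1.44 and those for hypo-DMRs 1.35, 1.48, 1.46 and 1.51. Only in WYG7 in the HN field did they differ by more than 0.2.

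The direction held chromosome by chromosome. Hyper-DMRs were the majority on 12 of 12 zones in Ox1 in the HN field (67.2% on chromosome 5 to 78.7% on chromosome 6) and on 12 of 12 in WYG7 in the NN field (58.8% on chromosome 12 to 74.3% on chromosome 2). In Ox1 in the NN field they were the majority on 0 of 12 (25.3% on chromosome 1 to 42.5% on chromosome 12). In these comparisons the rest of every chromosome had the same majority as its zone, so the pattern was not particular to the zones. WYG7 in the HN field had a hyper majority on 1 zone, chromosome 8, with 55.8% (50.6-60.9%), against 54.5% in the rest of that chromosome. The lowest value of WYG7 in the HN field was 35.3% on chromosome 12. From the HN to the NN field the share fell by 42.3 points in Ox1, whereas in WYG7 it rose by 24.4 points. The lists as a whole moved the same way, by -41.7 points in Ox1 and 18.6 points in WYG7. It was higher in WYG7 on 12 of 12 chromosomes, by 10.5 points (chromosome 8) to 35.7 points (chromosome 9), and lower in Ox1 on 12 of 12, by 31.1 points (chromosome 12) to 52.0 points (chromosome 1). Chromosomes of 1 library are not replicates, and the field and the pair of libraries cannot be told apart. Zone and rest of the chromosome lay farthest apart in WYG7 in the HN field, with 35.5% against 52.6% on chromosome 9, 40.3% against 58.1% on chromosome 11 and 48.4% against 35.1% on chromosome 5, so that chromosome 5 lay on the other side.

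**Figure D3:**
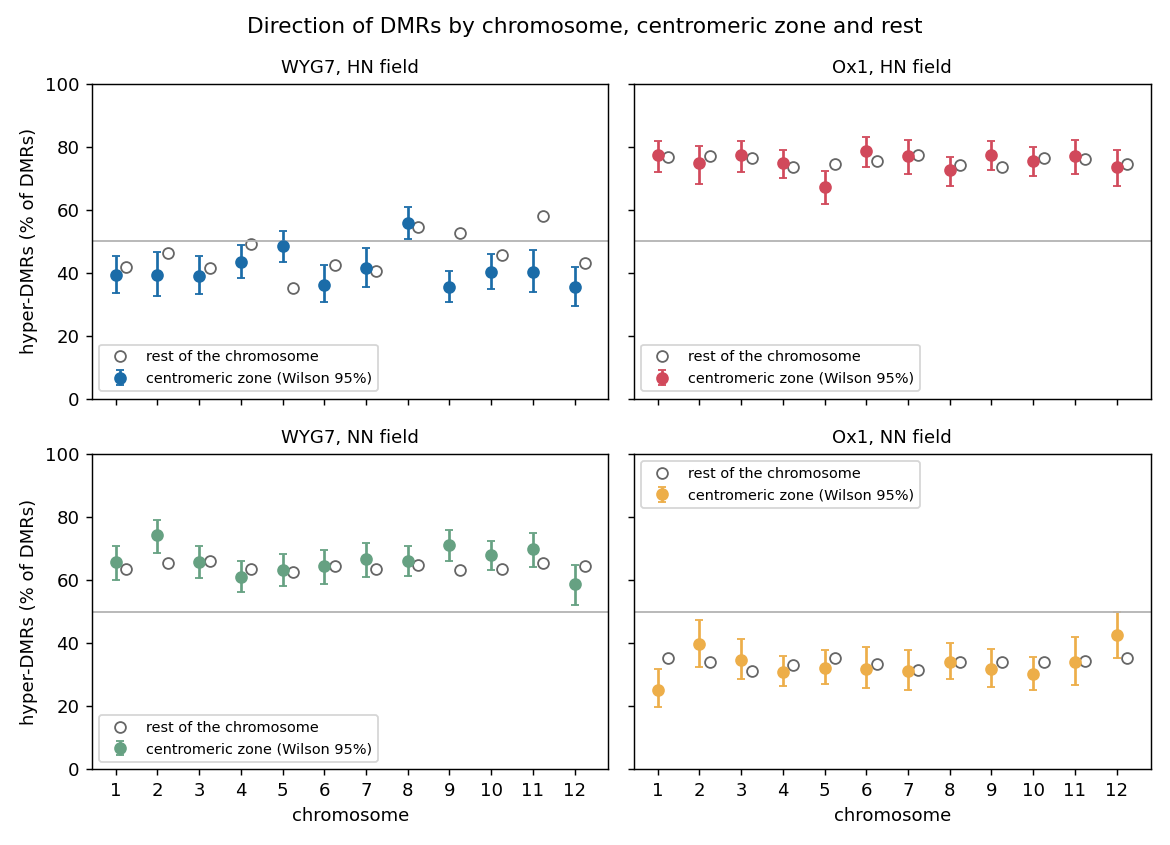
Share of hyper-DMRs in the centromeric zone of each chromosome (filled, Wilson interval) and in the rest of that chromosome (open), 1 panel per comparison, with a line at 50%. All 12 zones lie above the line in Ox1 in the HN field and WYG7 in the NN field, all 12 below it in Ox1 in the NN field, and 11 of 12 below it in WYG7 in the HN field.

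Nearest the centromere positions, the share of hyper-DMRs was lower than in the outer parts of the zones. Within 0.25 Mb it was 33.5% (29.9-37.3%, 609 DMRs) in WYG7 in the HN field, against 43.7% at 0.25-1.5 Mb. The other comparisons had smaller gaps, 73.0% against 75.6%, 63.0% against 66.9% and 29.3% against 33.6%, and the interval of the inner value includes the outer one in Ox1 in the HN field alone. The inner value was lower on 10, 7, 8 and 6 of 12 chromosomes. Without chromosome 9, whose inner part is described next, the inner value in WYG7 in the HN field was 35.4% (31.3-39.7%) and the outer one 44.1%. In Ox1 in the NN field the values were then 29.3% (25.3-33.7%) and 33.7%, and this interval just includes the outer value. Inner DMRs also had higher median lengths, 259 bp (244-274), 262 bp (244-276), 249 bp (236-264) and 239.5 bp (221-251), against 229, 235, 245 and 226 bp farther out. In both NN field comparisons the interval of the inner median includes the outer one.

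The DMRs were not evenly spread within the zones. Windows of 100 kb held a median of 8, 9, 10 and 6.5 DMRs, and the fullest held 49, 29, 28 and 33. The fullest of all lay at the centromere position of chromosome 9 (chr9:2800000-2899999), with 49 DMRs in WYG7 in the HN field, of which 41 were hypo-DMRs and 8 hyper-DMRs. The same window held 3 DMRs in Ox1 in the HN field, 11 in WYG7 in the NN field and 10 in Ox1 in the NN field, of which 1, 4 and 7 were hypo-DMRs. The DMRs of WYG7 in the HN field covered 24.6 kb of this window, against 0.927, 4.13 and 4.14 kb. This concentration was thus seen in 1 of the 4 comparisons. It is part of a run of 43 hypo-DMRs in a row with no hyper-DMR between them (chr9:2860340-2926119, 65.8 kb), the longest run of hypo-DMRs in any zone. The longest hypo run in the other lists was 6, 9 and 15 DMRs.

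Within the chromosome 9 window, the table of WYG7 in the HN field lists 9 genes, LOC_Os09g06120 to LOC_Os09g06200, and every DMR that overlapped one of them was a hypo-DMR. No annotation of these loci was used here. LOC_Os09g06150 (chr9:2878900-2886422) had 6 hypo-DMRs of 7089 bp in total, 6019 bp of them within the gene interval of 1 kb of promoter and gene body. One of these was the longest centromeric DMR in any list, a hypo-DMR of 3263 bp (chr9:2879897-2883159). In Ox1 in the HN field the same gene had 1 hyper-DMR of 403 bp, and in Ox1 in the NN field 1 hyper-DMR of 331 bp. In WYG7 in the NN field it had 2 hyper-DMRs and 1 hypo-DMR. The direction at this gene in WYG7 in the HN field was therefore opposite to that in both Ox1 comparisons.

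On chromosome 5, 0.8-0.9 Mb from the centromere position, the pattern was the reverse. There WYG7 in the HN field had 48 DMRs in 100 kb (chr5:13200000-13299999), of which 38 were hyper-DMRs, in a list where hyper-DMRs were the minority. It held the longest centromeric run of hyper-DMRs in this list, 34 in a row (chr5:13241135-13297982, 56.8 kb), and LOC_Os05g23250 alone had 7 hyper-DMRs and 0 hypo-DMRs. The other comparisons had 19 DMRs (14 hyper), 14 DMRs (8 hyper) and 19 DMRs (4 hyper) in the window. LOC_Os05g23190 had DMRs in all 4 lists, with 1 of 5, 4 of 6, 1 of 3 and 1 of 6 being hyper.

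Other windows were full in several lists at once. On chromosome 6, 1.3-1.4 Mb from the centromere position (chr6:16600000-16699999), there were 24, 24, 28 and 33 DMRs, of which 9, 18, 16 and 10 were hyper. This was the fullest window in both NN field lists. On chromosome 9 (chr9:1800000-1899999) there were 34, 29, 17 and 25 DMRs, with 20, 18, 6 and 8 hyper. In steps of 250 kb, the first window to the right of the centromere position of chromosome 10 had the highest sum, 211 DMRs over the 4 lists (48, 53, 56 and 54). In these windows no list stood far above the others.

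**Figure D4:**
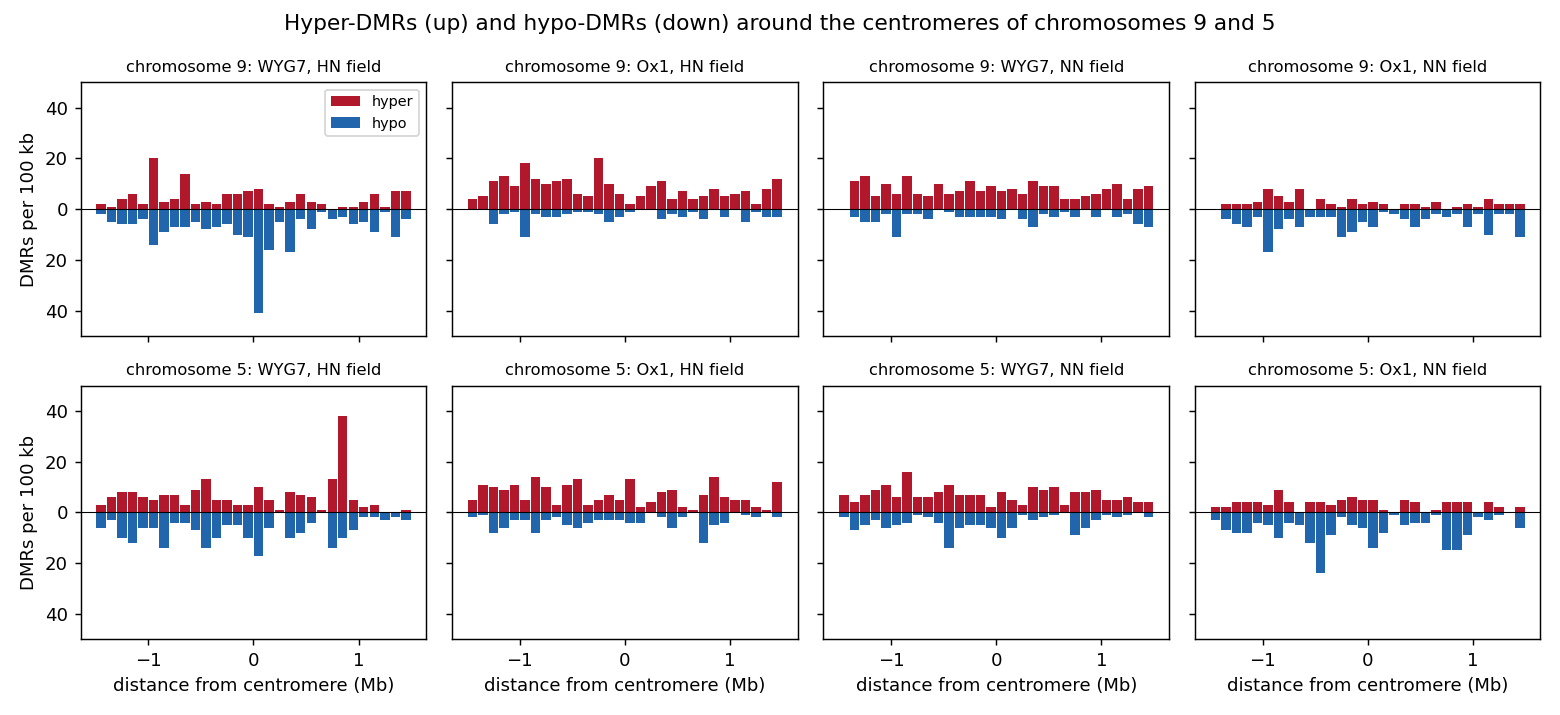
Numbers of hyper-DMRs (up) and hypo-DMRs (down) per 100 kb by distance from the centromere position on chromosomes 9 (top) and 5 (bottom), 1 column per comparison. In WYG7 in the HN field, 41 hypo-DMRs stand at the centromere position of chromosome 9 and 38 hyper-DMRs at about 0.85 Mb on chromosome 5; neither bar is seen in the other 3 comparisons.

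Centromeric DMRs were short, and their median was slightly above that of the other parts in each comparison. Their median lengths were 234 bp (228-240), 238 bp (232-244), 245 bp (240-252) and 228 bp (221-234), against 229, 225, 235 and 225 bp in the other parts. The middle 50% spanned 163-354, 166-356, 173-376 and 159-339 bp. In WYG7 in the HN field and Ox1 in the NN field, the interval of the zones includes the median of the other parts. At the chromosome ends the medians were 247, 221, 234 and 227 bp, so the zones were shorter than the ends in WYG7 in the HN field. The median was higher in the zone than in the rest on 9, 9, 11 and 7 of 12 chromosomes. In WYG7 in the HN field and Ox1 in the NN field, hypo-DMRs were the longer ones (medians of 241 and 234 bp, against 224 and 217 bp for hyper-DMRs), while in the other comparisons the directions differed by 1 bp. In the other parts, hypo-DMRs of these lists had medians of 228 and 233 bp and hyper-DMRs 229 and 212 bp. The gap in Ox1 in the NN field was thus not limited to the zones.

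Long DMRs were few around the centromeres. DMRs of at least 1 kb numbered 36 (1.07%), 29 (0.843%), 32 (0.856%) and 14 (0.517%), against 2.64%, 0.755%, 0.909% and 0.546% over the whole lists. The gap to the list was widest in WYG7 in the HN field, and most of it went with the dense windows: without them the share was 0.949% in the zones and 1.45% outside. Among the longest members, a hyper-DMR of 2429 bp in Ox1 in the HN field (chr6:14050092-14052520, in LOC_Os06g24050) overlapped no DMR of the other lists. The hyper-DMR of 1980 bp in WYG7 in the HN field (chr8:11656135-11658114, in no listed gene) overlapped a hyper-DMR of Ox1 in the NN field, and that of 1415 bp in WYG7 in the NN field (chr5:13347661-13349075, in LOC_Os05g23370) overlapped 2 hyper-DMRs of WYG7 in the HN field. No overlap with another list was found for a hyper-DMR of 1364 bp in Ox1 in the NN field (chr7:13233685-13235048, in LOC_Os07g23440). Among hypo-DMRs, one of 1696 bp in Ox1 in the HN field (chr4:8932892-8934587, in LOC_Os04g16430) overlapped a hypo-DMR of Ox1 in the NN field. That of 1832 bp in Ox1 in the NN field (chr4:9539482-9541313, in LOC_Os04g17440) overlapped 2 hypo-DMRs of WYG7 in the NN field and DMRs of both directions of WYG7 in the HN field. The longest hypo-DMR of WYG7 in the NN field, 1759 bp (chr6:14247649-14249407, in LOC_Os06g24350), overlapped hypo-DMRs of WYG7 in the HN field and Ox1 in the NN field and a hyper-DMR of Ox1 in the HN field.

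More than 50% of the centromeric DMRs of each list overlapped a DMR of another list by at least 1 bp. The numbers were 2132 (63.1%, 61.4-64.7%), 2033 (59.1%, 57.5-60.7%), 2178 (58.3%, 56.7-59.8%) and 1801 (66.5%, 64.7-68.3%), against 58.1%, 62.5%, 61.3% and 69.9% over the whole lists. Sharing was thus below that of the whole list in 3 comparisons and above it in WYG7 in the HN field. In the other parts of the chromosomes the shares were 57.4%, 63.0%, 61.8% and 70.4%. In WYG7 in the HN field the gap became smaller without the dense windows (64.1% against 62.5%) and kept its direction. In the other 3 comparisons sharing was lower in the zone than in the rest on 10 of 12 chromosomes each. DMRs that overlapped all 3 other lists numbered 279 (8.25%), 263 (7.65%), 262 (7.01%) and 248 (9.16%), against 7.00%, 7.80%, 7.57% and 9.56%.

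Between pairs of lists, the largest number of overlapping pairs in the zones, 1323, was between Ox1 in the HN field and WYG7 in the NN field, which are the longest centromeric lists and differ in both line and field. Elsewhere the most pairs, 8928, were between the WYG7 lists of the HN and the NN field, which had nearly as many in the zones. The 1323 pairs involved 36.1% of the centromeric DMRs of Ox1 in the HN field and 32.8% of those of WYG7 in the NN field (35.6% and 34.4% elsewhere), with equal directions in 58.7% (56.1-61.4%) of pairs. The product of the shares of directions in both lists would be 58.2%. The smallest number, 959, was between the Ox1 lists of the HN and the NN field (25.4% and 33.5%), where 47.2% (44.1-50.4%) agreed in direction and the product of shares was 41.4%. For the WYG7 lists of the HN and the NN field there were 1315 pairs (36.1% and 32.2%), with equal directions in 51.3%, against 47.4%. In the HN field, WYG7 and Ox1 had 1206 pairs (33.0% and 32.3%), with 46.8% against 45.9%. In the NN field they had 1039 (25.7% and 36.0%), with 47.8% against 44.4%. WYG7 in the HN field and Ox1 in the NN field had 1143 (31.7% and 39.5%), with 56.3% against 52.8%. The share of equal directions was thus above the product of shares in all 6 pairs, by 0.55 to 5.88 points, but the interval includes the product in WYG7 and Ox1 in the HN field (44.0-49.7%) and in the pair with the most overlaps. Elsewhere on the chromosomes the differences from the product lay between -0.51 and 3.77 points. The products use all centromeric DMRs of both lists, not only those that overlap. A share above the product therefore does not by itself show agreement in direction. Pairs of lists recur across these 6 values, and no test was made.

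When overlapping DMRs of all lists were joined, the zones held 7967 loci (221 per Mb, against 152 per Mb elsewhere). Of these, 5075 (63.7%) had a DMR in 1 list, 1767 (22.2%) in 2, 779 (9.78%) in 3 and 346 (4.34%, 3.92-4.81%) in all 4. The shares elsewhere were 62.9%, 22.1%, 10.5% and 4.50%, so the zones had more loci per Mb of each class and nearly the same make-up. The 346 loci were spread over all chromosomes, from 13 on chromosome 11 to 44 on chromosome 5. In 186 of them the 4 DMRs had a common segment, with a median of 96.5 bp.

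All 4 lists seldom had the same direction at these loci. In 154 of 346, a list had DMRs of both directions at the locus. Among the other 192, the most frequent pattern was hypo, hyper, hypo, hypo (30 loci, 15.6%), followed by hypo, hyper, hyper, hypo (25 loci, 13.0%). All 4 lists were hypo at 18 loci (9.38%, 6.01-14.3%), against 5.33% of such loci elsewhere and a product of list shares of 3.28%. They were hyper at 5 (2.60%, 1.12-5.95%), against 6.21% elsewhere and a product of 6.84%. Both products use the shares over all centromeric DMRs of each list, not the shares at these loci. A gap from a product therefore does not by itself show that lists agreed in direction. The 5 hyper loci, named after their values were seen, were chr2:14863640-14863926, chr3:18830459-18831053 in LOC_Os03g32930, chr5:11240430-11240863, chr5:11503223-11503545 and chr10:7088194-7088870 in LOC_Os10g12710. Examples of the 18 hypo loci, chosen likewise, with a segment common to all lists, were chr5:13102572-13103261 in LOC_Os05g22980, with 228 bp in common, and chr7:13372650-13372945 in LOC_Os07g23680, with 78 bp.

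**Figure D5:**
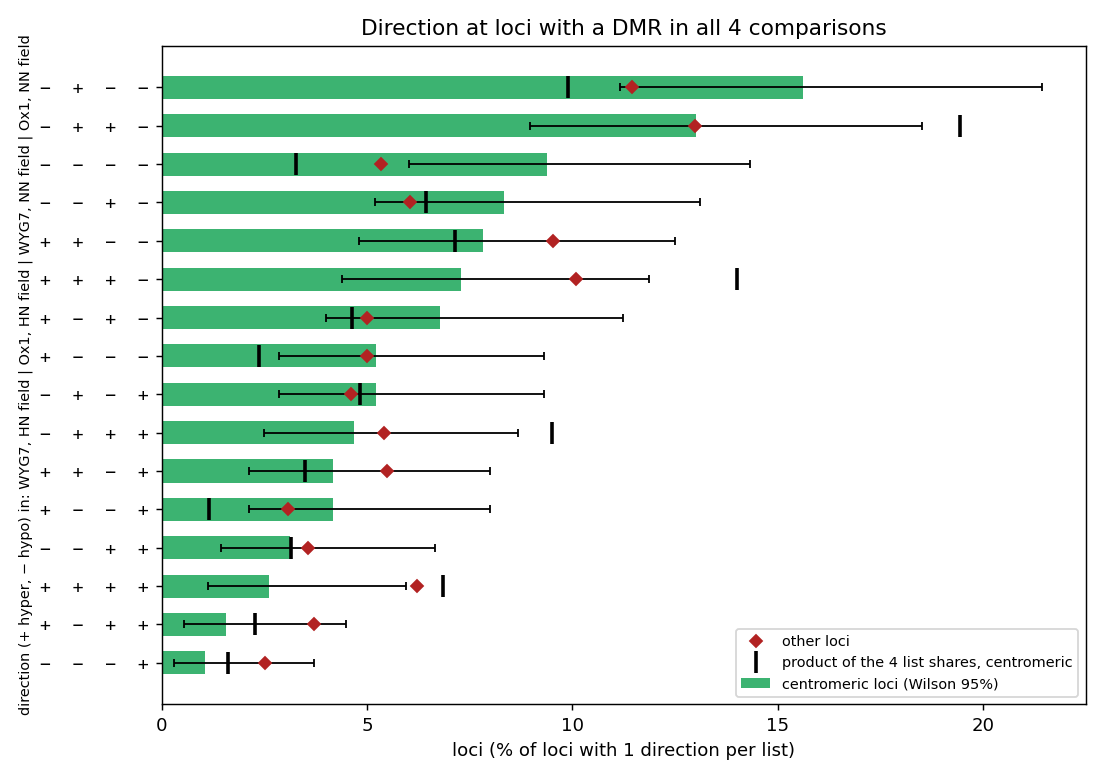
Share of each pattern of directions (+ hyper, − hypo, in the order of the comparisons) among centromeric loci with a DMR of 1 direction in all 4 lists (bars, Wilson interval), among such loci elsewhere (diamonds) and as the product of the shares of directions in the 4 centromeric lists (ticks). Loci hypo in all 4 lists made up 9.38% against a product of 3.28%, and loci hyper in all 4 made up 2.60% against 6.84%. The product rests on all centromeric DMRs of each list, not on the loci shown, so a gap does not by itself show agreement.

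The loci with the longest common segment were as follows. The longest, 489 bp (chr11:11722682-11723170, in LOC_Os11g20290), lay 277 kb to the left of the centromere position and was hyper in WYG7 in the HN field (a DMR of 591 bp), hyper in Ox1 in the HN field (743 bp), hypo in WYG7 in the NN field (576 bp) and hyper in Ox1 in the NN field (491 bp). WYG7 in the NN field was thus the exception. At chr5:13151125-13151547 (423 bp, in LOC_Os05g23070), WYG7 in the HN field was hyper (423 bp) and the other lists were hypo (692, 676 and 552 bp). At chr7:13137011-13137417 (407 bp, in LOC_Os07g23300), both HN field lists were hyper (773 and 473 bp) and both NN field lists hypo (598 and 625 bp), so the lists of 1 field had the same direction at this segment. At chr5:13355849-13356227 (379 bp, in LOC_Os05g23380), both WYG7 lists were hyper (538 and 534 bp) and both Ox1 lists hypo (1174 and 817 bp), so here the lists of 1 line had the same direction. At chr4:9726070-9726445 (376 bp, in LOC_Os04g17750), 26.1 kb from the centromere position, Ox1 in the HN field was hyper (536 bp) and the others hypo (544, 803 and 674 bp). The same pattern was seen at the locus nearest to a centromere position, 1.84 kb from that of chromosome 1 (chr1:16698133-16698242, 110 bp, in LOC_Os01g29804), with DMRs of 314, 412, 413 and 347 bp. Each DMR here is 1 call between 2 libraries.

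Most centromeric DMRs, like most DMRs of the whole lists, overlapped a listed gene interval, which is a gene body with 1 kb of promoter. In the 4 comparisons, 2202 (65.1%), 2361 (68.7%), 2496 (66.8%) and 1719 (63.5%) centromeric DMRs overlapped a gene interval listed for that comparison, against 63.0%, 65.2%, 64.2% and 62.9% over the whole lists. The tables list only genes with a DMR, so these shares and the cover given next depend on where DMRs lie and do not measure gene content. Intervals listed in any of the 4 comparisons together made up 31.3% of the zones and 20.3% of the other parts. Each comparison on its own listed fewer genes in the zones, 37.5, 41.0, 45.5 and 30.3 per Mb, against 71.6 per Mb listed in any. The cover by the intervals of a single comparison was not computed. Genes with a centromeric DMR numbered 1349, 1474, 1638 and 1090, which were 12.6%, 14.0%, 15.0% and 13.9% of the genes listed. Of 2580 genes with one in any comparison, 965 had it in 1, 674 in 2, 526 in 3 and 415 (16.1%) in all 4. Direction within genes followed that of the lists. Genes with hyper-DMRs alone numbered 393, 1039, 981 and 263, those with hypo-DMRs alone 657, 195, 330 and 632, and those with both 299, 240, 327 and 195. Of these genes, 38.9%, 38.7%, 35.3% and 32.3% had several DMRs, against 37.6%, 35.2%, 33.6% and 31.8% of the other genes listed.

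The genes with the most centromeric DMRs over the 4 lists had them in every list. LOC_Os07g23300 (chr7:13131547-13138692) had 31, with 7, 8, 10 and 6 per comparison, of which 4, 6, 7 and 3 were hyper. Its DMRs covered 3167, 2041, 3463 and 2177 bp of an interval of 7146 bp. LOC_Os01g28870 (chr1:16164769-16171924) had 29, with 6, 8, 6 and 9, of which 2, 5, 5 and 2 were hyper. LOC_Os06g29210 (chr6:16668673-16675636) also had 29, with 8, 6, 6 and 9, of which 3, 5, 1 and 1 were hyper; it lies in the full window of chromosome 6 described above. LOC_Os05g21100 (chr5:12403564-12410749) had 28, with 8, 6, 6 and 8, of which 1, 5, 1 and 0 were hyper. Its middle is 7.16 kb from the centromere position of chromosome 5, and its DMRs covered 2852, 2968, 2926 and 1750 bp of 7186 bp. Across this gene the DMRs of Ox1 in the HN field were hyper but for 1 of 276 bp (chr5:12406743-12407018), while all 8 of Ox1 in the NN field were hypo. The longest, a hyper-DMR of 1088 bp in Ox1 in the HN field (chr5:12409071-12410158), overlapped a hypo-DMR of 729 bp in WYG7 in the HN field that ends at the same base (chr5:12409430-12410158).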

How the data were processed

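Reads were trimmed by the authors and aligned with Bismark 0.9.0 to the build IRGSP-1.0 (both from the submitters' processing notes), and SMART was used to call DMRs of LN against HN libraries. The values used are the deposited positions in bp of DMRs and gene intervals, the listed directions and MSU locus identifiers. By the paper's methods, a DMR had to pass minimum values of coverage per cytosine, number of cytosines, length and methylation difference, and a p-value limit. Small changes are thus not listed, and the shortest DMR in any list was 100 bp. The authors' lists carry no counts, levels or p-values, so coverage at each DMR is unknown. The paper reports numbers of covered cytosines, which differ between the libraries. Annotation version: not given in the sources used here. Directions are those of the authors' own comparisons.

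Centromere positions are approximate and were given with the rule; chromosomes were taken to end at the last listed position. Densities, shares, lengths and overlaps of at least 1 bp came from scripts in Python 3.11.15 (pandas 2.3.3, numpy 2.4.6, scipy 1.17.1), and figures from matplotlib 3.10.9. Overlap and density functions were tested on simulated lists. Regions named are the 5 longest common segments of loci in all 4 lists, the locus nearest a centromere, the longest member of each direction and list, and the genes with the most members; genes and runs within full windows were named after their values were seen. Members and lists were chosen with earlier results of these data known. No test across samples was possible with 1 library per condition. Alternatives were zone width, membership, DMR length, merging, weighting, overlap and leaving out dense windows or chromosomes.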

Additional observations from a re-analysis of the deposited data

Results flagged for a closer look

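The share of hyper-DMRs around the centromeres moved in opposite directions between the fields in the 2 lines. From the HN to the NN field it fell by 42.3 points in Ox1, whereas in WYG7 it rose by 24.4 points, on every chromosome in each line. Over the whole lists it fell by 41.7 points in Ox1 and was 18.6 points higher in WYG7, so the opposite movement was not limited to the zones. This opposite movement was not tested, since each condition had 1 library.

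The fullest 100 kb window, at the centromere position of chromosome 9, held 41 hypo-DMRs in WYG7 in the HN field, against 1 in Ox1 in the HN field, 4 in WYG7 in the NN field and 7 in Ox1 in the NN field. This difference was not tested either, and the coverage of the libraries in this window is unknown.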

How the results depend on the processing

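Across the alternatives run, the zones stayed denser than the other parts in each comparison (ratios of 1.24-1.37, 1.44-1.56, 1.53-1.64 and 1.43-1.52, in the order of the report; 1.21-1.33, 1.43-1.48, 1.52-1.59 and 1.44-1.52 without each chromosome in turn), and no share of hyper-DMRs crossed 50%. For length and sharing, the value outside the zones was recomputed only without dense windows, and for length only as the share of DMRs of at least 1 kb. With DMRs of at least 200 bp alone, the share of hyper-DMRs was 40.0% in WYG7 in the HN field and 30.5% in Ox1 in the NN field; weighted by length, the latter was 31.0%. Merging neighbouring DMRs of 1 direction gave median lengths of 241 bp in WYG7 in the HN field, 246 bp in Ox1 in the HN field and 236 bp in Ox1 in the NN field. Sharing depended most on its definition. With DMRs of at least 200 bp it was 56.1%, 52.5%, 50.6% and 60.6%, and with a reciprocal overlap of 50% it was 34.0%, 32.1%, 31.0% and 34.8%. Zones of 3 Mb on either side gave 59.9% for WYG7 in the HN field. Of the other alternatives, 31 for density, 32 for the share of hyper-DMRs, 16 for length and 18 for sharing kept within 1.5 times the reported ratio or within the counting interval of the reported value. The limit for density is wide, so its count says little beyond the ratios given above. The cause of these shifts was not tested. Leaving out chromosome 9 was chosen after seeing the data. WYG7 in the NN field had no dense window to leave out. Densities per Mb of reference sequence other than N and zones centred on satellite repeats were not run, since no genome was used here.

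No paired analysis was possible because each condition had 1 library and the labels carry no replicate numbers. The main limits are the missing replicates, the unknown coverage and context behind each DMR, and the approximate centromere positions. Repeats, which are frequent around centromeres, can hinder unique alignment of bisulfite reads, and the mappable length of the zones was not measured, so densities are per Mb of chromosome.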
